A study of Mus musculus with 6 samples.

Results

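The genes described here encode 10 products of macrophages that act on regenerating skeletal muscle: Igf1, Gdf15, Gdf3, Tgfb1, Tgfbi, Pdgfb, Vegfa, Osm, Nampt and Glul. They were taken by gene name from the deposited expression table, and all 10 were found among 53522 genes that stood on a single named line. The libraries came from macrophages sorted as CD45-positive, F4/80-positive cells from mouse muscle 3 days after a barium chloride injection, an injury that destroys myofibres and is followed by their regeneration. All mice had the genotype Cx3cr1-CreER, Manffl/fl, so the oil controls carried the recombinase and the floxed Manf alleles too. Oil was given to the control group and tamoxifen, which activates the recombinase and is meant to delete Manf, to the other, with 3 libraries per group. Tamoxifen itself and the deletion cannot be told apart in this design. The recombinase can act only in cells in which the Cx3cr1 promoter is or was active, and the sources used here do not say whether a library came from a single mouse or a pool, so the spread between libraries may be technical.

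After injury, macrophages first clear dead fibres and then support the growth, fusion and vessel supply of new fibres. Part of that support is by secreted ligands. Insulin-like growth factor 1 (Igf1) drives myoblast growth, the TGF-beta superfamily members Gdf3 and Gdf15 are made by repair macrophages, latent TGF-beta 1 (Tgfb1) controls matrix deposition, and the IL-6 family cytokine oncostatin M (Osm) acts on muscle stem cells. Others are enzymes of supply: glutamine synthetase (Glul) makes glutamine, which macrophages can pass on to muscle stem cells, and Nampt makes the precursor of NAD and is also released from cells.

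The labels were checked first. Manf, the gene to be deleted, was at 29.5, 33.0 and 31.4 FPKM (fragments per kilobase of exon, scaled to library size) in oil. It was at 18.1, 42.5 and 38.0 FPKM in those labelled tamoxifen 1, 2 and 3. Only tamoxifen 1 lay below the oil libraries, and tamoxifen 2 and 3 lay above every one. Manf thus did not separate the groups, and the libraries are called by their labels throughout. Such a gene-wide value also counts exons outside the floxed part. The sort genes Adgre1 (F4/80) and Ptprc (CD45) were at 353 ± 27.8 and 50.7 ± 3.60 FPKM with oil against 329 ± 35.1 and 39.0 ± 6.88 FPKM in those labelled tamoxifen (SD, n = 3). Cx3cr1, whose promoter drives the recombinase, lay lower in all 3 libraries labelled tamoxifen, at 31.3, 9.82 and 24.6 FPKM against 42.7 to 51.7 FPKM in oil. On the first principal component of all tested genes (67.7% of the variance) the library labelled tamoxifen 1, at -6.79, stood nearer to the oil libraries (-22.5 to -13.5) than to the libraries labelled tamoxifen 2 and 3 (34.2 and 22.1). Results that rest on it are therefore given with and without it. Summed markers of several other cell types differed between the groups, mostly through a few genes. Neutrophil markers (12 genes) ran from 48.1 to 51.9 FPKM in oil and were 54.1, 370 and 111 FPKM in those labelled tamoxifen 1, 2 and 3. S100a8, S100a9 and Lcn2 carried most of the difference, while Ly6g, Camp, Ltf and Ngp were at or below 0.271 FPKM in every library. Of the 8 neutrophil genes tested, 6 had a fold change above 0 and 2 below, with a median log2 fold change of 0.64. All 3 libraries labelled tamoxifen lay above oil in 3 of these 8, against 16.2% of all genes tested. Stromal markers (10 genes) summed to 198 to 232 FPKM in oil and 265 to 315 FPKM in those labelled tamoxifen. That sum is mostly Gsn (159 to 180 and 185 to 231 FPKM) and Ly6a (15.3 to 34.6 and 34.2 to 65.0 FPKM), while the collagens Col1a1, Col1a2 and Col3a1 overlapped between groups and lay below every oil library in tamoxifen 1. Dendritic cell markers (8 genes), mostly Itgax, summed to 33.6 to 48.1 FPKM in oil and 20.4 to 32.6 FPKM in those labelled tamoxifen. Satellite cell markers (8 genes) summed to 4.91 to 8.97 FPKM in oil and 1.54 to 3.24 FPKM in those labelled tamoxifen, and myofibre markers (9 genes) to 4.97 to 9.15 and 2.62 to 3.90 FPKM. B cell markers (7 genes, mostly Ighm, with Igkc at 0 throughout) summed to 29.6 to 36.0 and 9.24 to 24.0 FPKM. The list did not move as one. Of its 3 genes tested, 2 lay below and 1 above oil in all 3 libraries labelled tamoxifen, where 13.8% and 16.2% of all genes did. The groups overlapped in summed endothelial (8 genes, 5.90 to 8.05 FPKM over all libraries), platelet (8 genes, 4.27 to 7.34), T and NK cell (9 genes, Trbc2 and Ncr1 at 0, 1.89 to 3.00) and erythroid markers (6 genes, no more than 4.25). The macrophage and sort genes (9 genes, mostly Lyz2) summed to 11200 to 12900 FPKM in oil and 9010 to 10100 FPKM in those labelled tamoxifen. The part of these shifts in the results below was not tested. In sorted bulk RNA, fewer cells of a kind and less RNA per cell cannot be told apart.

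Of the 10 factors, Igf1, Glul and Tgfb1 were lower in every library labelled tamoxifen than in any oil library, and Tgfbi was higher in every one. Gdf15 and Gdf3 were at roughly the oil level or above it in the library labelled tamoxifen 1 and well below it in the other two. Pdgfb was low in the libraries labelled tamoxifen 1 and 2, and Vegfa, Osm and Nampt lay near their oil level. With all 6 libraries, limma-trend on log2(FPKM + 1) called 0 factors higher and 0 lower at an adjusted p under 0.05, and all 10 had passed the filter at a mean of 1 FPKM. The background was the same, as 0% of 10896 genes were called higher and 0% lower, and limma-voom on recovered reads also called 0 genes in either direction, in the lists described below too. At an unadjusted p under 0.05, 1 factor was higher and 5 were lower, where 13.2% of all genes tested were higher and 11.8% lower. The groups did not overlap in 1 factor on the higher side and 3 on the lower side, against 16.2% and 13.8% of all genes. The median log2 fold change of the 10 was -0.34, and that of all genes tested was 0.02. The median of the 9 macrophage and sort genes was -0.38, of which 4 lay below oil in all 3 libraries labelled tamoxifen (Ptprc, Cx3cr1, Csf1r and Lyz2) and 1 above (Fcgr1).

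**Figure D1:**
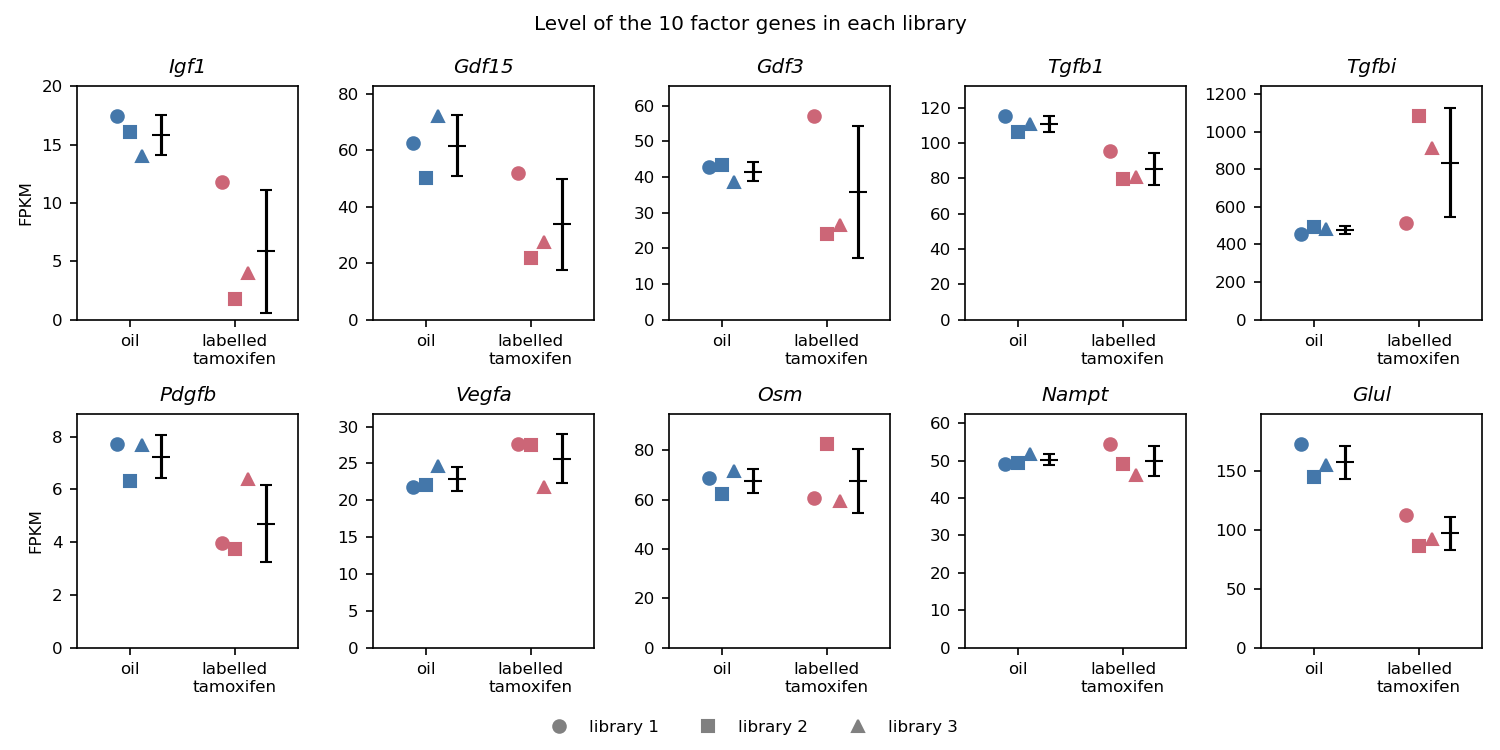
FPKM of each of the 10 factor genes in the 3 oil libraries (blue) and the 3 libraries labelled tamoxifen (red), with a separate linear scale from 0 in each panel. Marker shape gives the library number, which does not pair libraries across groups, and the black bar is the group mean with its SD. Igf1, Tgfb1 and Glul lie below and Tgfbi above the oil range in all 3 libraries labelled tamoxifen.

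Without the library labelled tamoxifen 1, the same fit called 1 factor higher (Tgfbi) and 5 lower (Igf1, Gdf15, Gdf3, Tgfb1 and Glul). In that fit 17.5% of 10905 genes were called higher and 14.5% lower, so a large part of the transcriptome separated along with these genes. Without any other single library 0 factors were called. Weighting libraries by quality, an alternative added after seeing the data, also called 1 factor higher and 5 lower, where 24.7% of all genes were called higher and 18.7% lower. The calls therefore rest on leaving out 1 library or on unequal weights, and in the first case only 2 libraries stand for the group labelled tamoxifen. This fit on the other 5 libraries is called the 5-library fit below. The library left out was singled out by these same expression values, as the one of its group nearest to oil. Leaving out such a library tends to widen differences and narrow their spread. The calls and adjusted p-values of the 5-library fit therefore describe the other libraries and are no independent test. The 5-library fit leaves out the only library in which Manf lay below oil. Manf, the gene to be deleted, was called higher in it (log2 fold change 0.35, SE 0.08, limma-trend adjusted p = 0.0212).

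By level, which FPKM allows to be compared between genes because it is divided by exon length, the order of mean FPKM in oil was Tgfbi (476), Glul (158), Tgfb1 (111), Osm (67.5), Gdf15 (61.6), Nampt (50.2), Gdf3 (41.5), Vegfa (22.8), Igf1 (15.8) and Pdgfb (7.24). The oil libraries overlapped between the neighbours Osm and Gdf15 and between Gdf15 and Nampt, and the other neighbours did not overlap. Tgfbi stood at the 99.6th percentile of mean FPKM among genes tested and Pdgfb at the 44.7th, so the factors range from among the most abundant macrophage transcripts to the middle of the distribution. In the libraries labelled tamoxifen the mean of Gdf15 (33.8 FPKM) lay below those of Nampt (49.9) and Gdf3 (35.8), with overlapping libraries. Between 18120334 and 25544654 reads lay behind each library, and the fewest recovered reads behind any factor were 281, for Pdgfb in the library labelled tamoxifen 2, with an exact 95% Poisson interval of 249 to 316 that covers counting error only.

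Igf1 (ENSMUSG00000020053.18, chromosome 10, 87858265 to 87937042, plus strand, GRCm38) had the largest log2 fold change of the 10 in size. It was at 17.4, 16.1 and 14.0 FPKM with oil against 11.8, 1.78 and 4.04 FPKM in those labelled tamoxifen 1, 2 and 3. All 3 lay below the lowest oil library, tamoxifen 1 by little and tamoxifen 2 by the most. The recovered reads were 3198, 3109 and 3544 in oil and 2585, 320 and 939 in the libraries labelled tamoxifen. The group means were 15.8 ± 1.72 and 5.89 ± 5.28 FPKM (SD, n = 3), a log2 fold change of -1.57 (SE 0.50, 95% interval -2.76 to -0.38, limma-trend adjusted p = 0.156). In the 5-library fit Igf1 fell by 2.16 on the log2 scale (SE 0.24, limma-trend adjusted p = 0.00323).

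Of the other genes of the insulin-like growth factor axis, 7 of 17 were measured at a mean of at least 1 FPKM. With all 6 libraries limma-trend called 0 of them (2 higher and 2 lower at an unadjusted p under 0.05), and their median log2 fold change was 0.06. Igfbp4, a secreted binding protein that holds the ligand away from its receptor, was at 44.5, 36.4 and 34.6 FPKM with oil against 22.6, 23.8 and 26.7 FPKM in those labelled tamoxifen (log2 fold change -0.63, SE 0.12, limma-trend adjusted p = 0.147). Its 3 libraries labelled tamoxifen stood close together and below oil, unlike those of Igf1. Igf2r, which takes up and degrades IGF2, was at 26.9 to 30.6 FPKM with oil against 33.6, 51.1 and 41.8 FPKM in those labelled tamoxifen. Igfbp6, another binding protein, was at 0.810 to 1.16 FPKM with oil against 1.55, 10.9 and 5.25 FPKM. The insulin receptor Insr and the adaptor Irs2 had log2 fold changes of -0.34 and -0.39, with overlapping libraries. The IGF1 receptor Igf1r was near the detection filter, at 1.11 to 1.23 FPKM in oil and 0.981 to 1.57 FPKM in those labelled tamoxifen. The second ligand, Igf2, was at 0 in all oil libraries and at no more than 0.0159 FPKM elsewhere, so Igf1 was the only ligand of the pair at 1 FPKM or more. The 5-library fit called 2 of these genes higher (Igf2r and Igfbp6) and 3 lower (Igfbp4, Insr and Irs2). Over all genes it called 17.5% higher and 14.5% lower, and the unadjusted shares with all 6 libraries were 13.2% and 11.8%. Igfbp6, at a mean of 0.93 FPKM in oil, passed the filter only through the libraries labelled tamoxifen, so it could not come out lower.

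Gdf15 (ENSMUSG00000038508.7, chromosome 8, 70629393 to 70632456, minus strand) and Gdf3 (ENSMUSG00000030117.5, chromosome 6, 122605403 to 122610087, minus strand) shared a pattern in which the library labelled tamoxifen 1 stood apart. The first principal component of all tested genes (67.7% of the variance) has the same order, with tamoxifen 1 nearest to oil. The pattern is therefore not particular to these genes. Whether a shared order links genes named here or below was not tested. Gdf15 was at 62.4, 50.3 and 71.9 FPKM with oil against 52.0, 21.7 and 27.6 FPKM in those labelled tamoxifen 1, 2 and 3. The library labelled tamoxifen 1 lay within the oil range and the other two below it. The means were 61.6 ± 10.8 and 33.8 ± 16.1 FPKM (SD, n = 3), a log2 fold change of -0.93 (SE 0.31, 95% interval -1.66 to -0.20, limma-trend adjusted p = 0.158). Gdf3, which in mouse muscle is secreted by repair macrophages under the nuclear receptor PPAR-gamma and favours myoblast fusion, was at 42.8, 43.3 and 38.5 FPKM with oil against 57.0, 24.0 and 26.5 FPKM in those labelled tamoxifen. Here tamoxifen 1 lay above every oil library while tamoxifen 2 and 3 lay below every one. Its log2 fold change was -0.31 (SE 0.30, 95% interval -1.03 to 0.41, limma-trend adjusted p = 0.521). Gdf15 fell by 1.28 and Gdf3 fell by 0.70 on the log2 scale in the 5-library fit (limma-trend adjusted p = 0.00464 and 0.00336).

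The 250 bases upstream of the RefSeq start of Gdf15 are shown with those of Tgfb1 and the part of the Tgfbi window that lies outside annotated exons, since Gdf15 and Tgfb1 were lower and Tgfbi higher in the libraries labelled tamoxifen 2 and 3. The sequences are from RefSeq on GRCm38.p6, on the gene's strand, 5′ to 3′. Capitals mark the nuclear receptor half-site AGGTCA in Gdf15 and GC boxes (GGGCGG or its complement CCGCCC) in the other two. The windows are Gdf15 on chr8:70632457-70632706 (minus strand), Tgfb1 on chr7:25686752-25687001 (plus strand) and Tgfbi on chr13:56609336-56609522 (plus strand).
Gdf15: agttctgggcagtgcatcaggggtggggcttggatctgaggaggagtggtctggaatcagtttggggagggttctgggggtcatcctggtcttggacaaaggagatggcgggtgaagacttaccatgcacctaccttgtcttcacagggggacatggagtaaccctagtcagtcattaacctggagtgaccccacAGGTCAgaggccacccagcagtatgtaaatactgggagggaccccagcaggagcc
Tgfb1: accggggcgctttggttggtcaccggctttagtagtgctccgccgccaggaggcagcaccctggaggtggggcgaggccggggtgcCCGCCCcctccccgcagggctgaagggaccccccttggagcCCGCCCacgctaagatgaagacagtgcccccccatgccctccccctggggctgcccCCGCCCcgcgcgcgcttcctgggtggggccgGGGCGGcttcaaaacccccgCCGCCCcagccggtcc
Tgfbi: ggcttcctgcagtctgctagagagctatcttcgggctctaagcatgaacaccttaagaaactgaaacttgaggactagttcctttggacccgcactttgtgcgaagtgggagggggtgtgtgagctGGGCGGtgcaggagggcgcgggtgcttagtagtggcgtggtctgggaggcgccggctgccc

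Of the 10 factors 7 had an entry in the promoter table; Gdf3, Osm and Pdgfb had none. Gdf15 and Vegfa had 2 promoters each, so 9 windows were searched. Annotated exons covered all of the Igf1 and Glul windows, 196 of 250 bases of 1 Gdf15 window, 218 of 1 Vegfa window and 63 of that of Tgfbi. For Glul and both Vegfa windows the bases after the start were not found in an annotated transcript of the gene. Matches in these windows may therefore lie in exons or away from a used start. The half-site AGGTCA stood in 4 of the 9, those of Gdf15 (1 window), Glul, Igf1 and Nampt, and in 14.0% of 32851 promoters of that length. Nampt, whose libraries overlapped between groups, held it as did the 3 with a lower mean. The GC box stood in 6 of the 9 (Glul, Nampt, Tgfb1, Tgfbi and both of Vegfa) and in 32.7% of promoters, and the CCAAT box in 5 of the 9 (Gdf15, Glul, Igf1 and both of Vegfa) and in 33.8%. The hypoxia response core ACGTG stood in 3 of the 9 (1 window each of Gdf15, Nampt and Vegfa) and in 16.6% of promoters. The loose AP-1 pattern TGANTCA, with any base at N, stood in the Igf1 window as TGAATCA and in 6.75% of promoters. The motifs TGATGNAA (C/EBP-ATF composite, 3.45% of promoters), TGACGTCA (CRE, 1.55%), TTCNNNGAA (STAT, 7.02%), the PPAR and RXR direct repeat (2 copies of the half-site with 1 base between, 0.0335%), GTCTAGAC (Smad, 0.167%) and TATAAA (12.4%) were in none of the 9. All were searched on both strands, were chosen after the values were seen, and describe letters in these windows only.

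PPAR-gamma with its partner RXR drives Gdf3 in mouse macrophages. Genes known as targets of PPAR-gamma, RXR or their partners had mostly negative fold changes. In 5 of 13 measured the groups did not overlap, all 5 below oil, where 13.8% of all genes tested lay below. Of these 13 targets limma-trend called 0 with all 6 libraries (0 higher and 5 lower at an unadjusted p under 0.05) and 11 had a fold change below 0, with a median log2 fold change of -0.41 against 0.02 over all genes. The cholesterol exporters Abca1 and Abcg1 were at 46.9 to 59.8 and 50.9 to 64.1 FPKM in oil. In the libraries labelled tamoxifen 1, 2 and 3 Abca1 was at 44.4, 15.0 and 17.2 FPKM and Abcg1 at 50.3, 13.0 and 18.4 FPKM, so tamoxifen 1 again stood just under oil. Angptl4, an inhibitor of lipoprotein lipase, was at 6.14 to 9.22 FPKM with oil against 5.51, 1.43 and 2.22 FPKM. The fatty acid carrier Fabp5 had the same order as Gdf3, at 217 to 234 FPKM in oil and 257, 105 and 123 FPKM. Plin2, Lpl and Acot1 overlapped between groups (log2 fold changes 0.00, 0.09 and -0.10). Of the receptors, Rxra was at 19.2 to 22.8 FPKM with oil against 16.1, 8.37 and 10.6 FPKM in those labelled tamoxifen (log2 fold change -0.86, limma-trend adjusted p = 0.147), and Rxrb and Ppard were also below oil in all 3 (-0.40 and -0.36). Pparg overlapped, at 10.4 to 13.2 FPKM in oil and 7.46 to 17.1 FPKM in those labelled tamoxifen. The nuclear receptor Nr1h3 (LXR-alpha) had the order of Abca1 and Abcg1 in those labelled tamoxifen. It was at 30.4 to 33.8 FPKM in oil and 32.3, 13.1 and 16.9 FPKM (-0.69). Which receptor these targets follow was not tested. Of these targets 7 were called lower and 0 higher in the 5-library fit, where 14.5% of all genes were called lower and 17.5% higher. The unadjusted shares of all genes with all 6 libraries were 11.8% lower and 13.2% higher.

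Among 32 measured regulators of repair macrophages, a list that also holds those receptors, 0 were called by limma-trend with all 6 libraries (6 higher and 7 lower at an unadjusted p under 0.05) and the median log2 fold change was -0.06. Cebpa, a myeloid transcription factor, was at 140 to 147 FPKM with oil against 137, 65.9 and 70.5 FPKM in those labelled tamoxifen. Mapk14 (p38) and Nr1d1, a clock repressor, had log2 fold changes of -0.38 and -0.50, and the deacetylase Sirt1 0.51. Ddit3 and Atf4, stress factors known to induce Gdf15 in other cells, had log2 fold changes of 0.27 and 0.33. Trp53, another known inducer of Gdf15, was at 0.13. Other genes of the list went down. Atf3 was at 390, 404 and 300 FPKM with oil against 360, 244 and 252 FPKM in those labelled tamoxifen (-0.36). Bach1 was at 57.8 to 69.8 FPKM in oil and 55.6, 57.2 and 45.7 FPKM (-0.23). Whether any of these genes acts on Gdf15 here was not tested. The list gave 3 higher and 10 lower calls in the 5-library fit, where 17.5% of all genes were called higher and 14.5% lower. Unadjusted, with all 6 libraries, 13.2% of all genes were higher and 11.8% lower.

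**Figure D2:**
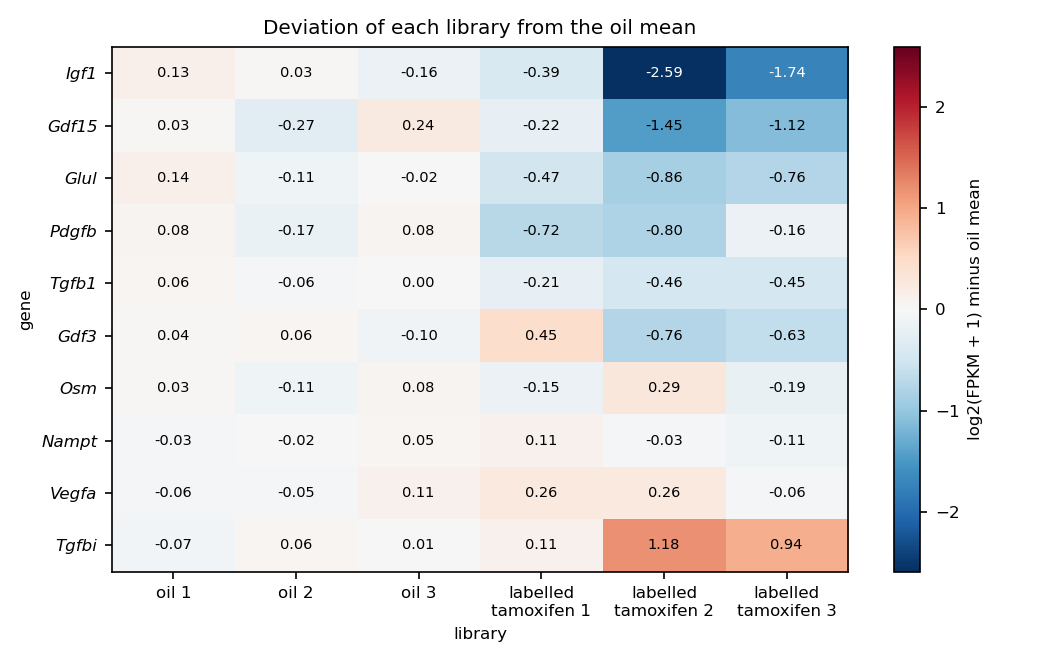
Difference of log2(FPKM + 1) in each library from the mean of the 3 oil libraries, for the 10 factor genes ordered by fold change (blue below, red above the oil mean). Igf1 is at -2.59 and -1.74 in the libraries labelled tamoxifen 2 and 3 but at -0.39 in tamoxifen 1, and Gdf3 is at 0.45 in tamoxifen 1.

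Tgfb1 (ENSMUSG00000002603.15, chromosome 7, 25687002 to 25705077, plus strand) was at 115, 106 and 111 FPKM with oil against 95.7, 79.9 and 80.5 FPKM in those labelled tamoxifen 1, 2 and 3. All 3 stood below oil, and the spread within each group was small. The ratio of the oil mean to the mean labelled tamoxifen was 1.30, a log2 fold change of -0.37 (SE 0.09, 95% interval -0.60 to -0.15, limma-trend adjusted p = 0.148). Tgfbi (ENSMUSG00000035493.10, chromosome 13, 56609523 to 56639562, plus strand), a secreted matrix protein named for its induction by TGF-beta, went the other way. It was at 454, 494 and 480 FPKM with oil against 514, 1080 and 911 FPKM in those labelled tamoxifen. The library labelled tamoxifen 1 was only slightly above oil, and the other two were far above it. The means were 476 ± 20.5 and 835 ± 290 FPKM (SD, n = 3), a log2 fold change of 0.74 (SE 0.26, 95% interval 0.12 to 1.36, limma-trend adjusted p = 0.163). Tgfb1 fell by 0.46 and Tgfbi rose by 1.06 on the log2 scale in the 5-library fit (limma-trend adjusted p = 0.00497 and 0.0024).

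Of 20 measured genes of TGF-beta ligands, activation and signalling, 14 had a fold change below 0 and 6 above, with a median log2 fold change of -0.16. Limma-trend called 0 with all 6 libraries (1 higher and 5 lower at an unadjusted p under 0.05). Tgfbr1, the signalling receptor, was at 78.5, 65.6 and 74.4 FPKM with oil against 59.0, 28.6 and 36.8 FPKM in those labelled tamoxifen (log2 fold change -0.86, SE 0.24, limma-trend adjusted p = 0.152). Tgfbr2, its partner, was at 34.6 to 35.6 FPKM with oil against 36.8, 26.8 and 29.3 FPKM, so the groups overlapped. Ltbp3, which tethers the latent ligand to matrix, was at 2.55 to 3.99 FPKM in oil and 0.989 to 2.08 FPKM in those labelled tamoxifen. Endoglin (Eng), a co-receptor, was at 13.2 to 16.2 and 7.84 to 12.5 FPKM. Thbs1, which can release TGF-beta from its latent form, lay on the other side, at 350 to 428 FPKM in oil and 501, 969 and 557 FPKM. Tgfb3 was low throughout (1.32 to 1.70 and 0.832 to 1.29 FPKM), and Tgfb2 was at or below 0.152 FPKM, so Tgfb1 was the most abundant of the 3 ligands. Smad3 and the inhibitory Smad7 overlapped between groups (log2 fold changes 0.07 and -0.14). Of the 20 genes, 3 were called higher and 10 lower in the 5-library fit, where 17.5% and 14.5% of all genes were. At an unadjusted p under 0.05 with all 6 libraries, 13.2% of all genes were higher and 11.8% lower. Tgfb3, at a mean of 0.992 FPKM in those labelled tamoxifen, passed the filter only through oil, so it could not come out higher.

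In the activin, BMP and GDF branch, to which Gdf3 and Gdf15 belong by structure, 12 of 34 genes were measured, with a median log2 fold change of -0.04. With all 6 libraries 0 were called by limma-trend (1 higher and 2 lower at an unadjusted p under 0.05). Gfral, the brain receptor of Gdf15, was at 0 in every library. Id2 and Id3, inhibitors of differentiation that BMP signals induce, were at 55.8 to 64.6 and 10.1 to 15.0 FPKM with oil against 36.1 to 49.8 and 6.33 to 8.26 FPKM in those labelled tamoxifen (log2 fold changes -0.49 and -0.63). Id1, of the same family, overlapped (0.24). Inhba, the activin A subunit, was at 0.429 to 0.571 FPKM in oil and 0.639, 2.88 and 1.35 FPKM in those labelled tamoxifen, a low level at which the log2(FPKM + 1) scale understates the change. Acvr2a and Acvr1b, receptors of activins, had log2 fold changes of 0.17 and 0.07. The 5-library fit called 1 gene higher (Inhba) and 2 lower (Id2 and Id3), where 17.5% and 14.5% of all genes were called. The shares of all genes at an unadjusted p under 0.05 were 13.2% higher and 11.8% lower. Inhba, at a mean of 0.477 FPKM in oil, passed the filter only through the libraries labelled tamoxifen. It could therefore not come out lower, and its call is no evidence of a rise.

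Pdgfb (ENSMUSG00000000489.7, chromosome 15, 79995874 to 80014977, minus strand), a ligand for pericytes and fibroblasts, was at 7.71, 6.32 and 7.70 FPKM with oil against 3.98, 3.73 and 6.38 FPKM in those labelled tamoxifen 1, 2 and 3. Its order differed from that of Igf1 and Gdf15, since tamoxifen 1 was low and tamoxifen 3 just above the lowest oil library. The means were 7.24 ± 0.797 and 4.70 ± 1.46 FPKM (SD, n = 3), a log2 fold change of -0.56 (SE 0.18, 95% interval -0.98 to -0.13, limma-trend adjusted p = 0.157), and it was not called in the 5-library fit either (-0.48, limma-trend adjusted p = 0.109). Vegfa (ENSMUSG00000023951.17, chromosome 17, 46016993 to 46032369, minus strand), which drives vessel growth, was at 21.8, 22.0 and 24.7 FPKM with oil against 27.6, 27.5 and 21.8 FPKM. The library labelled tamoxifen 3 was level with the lowest oil library and the other two lay above every one. The log2 fold change was 0.15 with a 95% interval of -0.11 to 0.41 (SE 0.11, limma-trend adjusted p = 0.398).

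The ligands Pdgfa, Pdgfc and Vegfb lay lower in all 3 libraries labelled tamoxifen, while Pgf, Vegfc, Vegfd and Pdgfd overlapped between groups at levels too low to be tested. Of 12 measured genes of the PDGF and VEGF family, limma-trend called 0 with all 6 libraries (1 higher and 3 lower at an unadjusted p under 0.05) and the median log2 fold change was -0.08. Pdgfa was at 10.3, 9.73 and 10.8 FPKM with oil against 7.25, 4.79 and 8.44 FPKM in those labelled tamoxifen (log2 fold change -0.55), with tamoxifen 2 lowest as for Pdgfb. Pdgfc was at 1.93 to 2.11 FPKM in oil and 0.703 to 1.42 FPKM (-0.63). Vegfb was at 15.7, 13.9 and 16.3 FPKM with oil against 10.7, 5.67 and 8.23 FPKM (log2 fold change -0.86, SE 0.20, limma-trend adjusted p = 0.147). For these 3 ligands the groups did not overlap. Of the 12 genes, 3 lay below and 1 above oil in all 3 libraries labelled tamoxifen, where 13.8% and 16.2% of all genes tested did. The oxygen-sensing factor Hif1a, a known inducer of Vegfa, was at 23.3 to 24.7 FPKM in oil and 25.8, 34.3 and 32.3 FPKM. Pdgfra and Pdgfrb, the PDGF receptors and markers of stromal cells, were at or below 0.672 FPKM in every library. In this family 1 gene was called higher (Hif1a) and 4 lower in the 5-library fit (Vegfb, Pdgfc, Vhl and the co-receptor Nrp1). That fit called 17.5% of all genes higher and 14.5% lower, and the unadjusted shares with all 6 libraries were 13.2% and 11.8%. Pdgfc, at a mean of 0.978 FPKM in those labelled tamoxifen, passed the filter only through oil, so it could not come out higher.

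**Figure D3:**
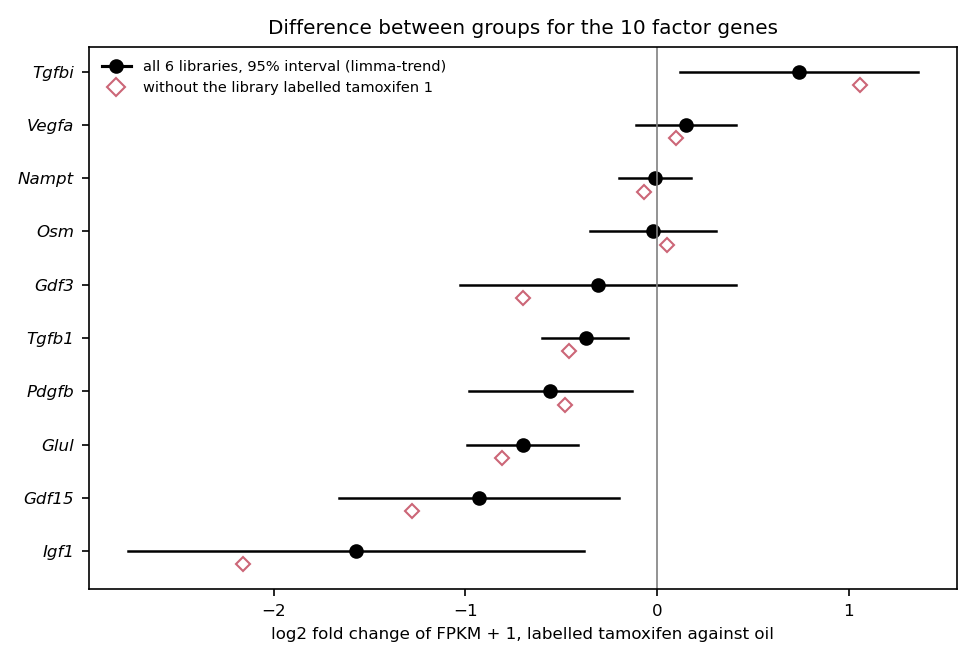
Log2 fold change of FPKM + 1 for each factor gene, libraries labelled tamoxifen against oil, with its 95% interval over all 6 libraries (black) and the value without the library labelled tamoxifen 1 (open diamonds). None of the 10 passed with all 6 libraries, and without tamoxifen 1 the values ran from -2.16 (Igf1) to 1.06 (Tgfbi).

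Osm (ENSMUSG00000058755.3, chromosome 11, 4236420 to 4241026, plus strand) was at 68.9, 62.3 and 71.4 FPKM with oil against 60.6, 82.4 and 59.2 FPKM in those labelled tamoxifen 1, 2 and 3. Tamoxifen 2 lay above the oil range and the other two below it. The means were 67.5 ± 4.70 and 67.4 ± 13.0 FPKM (SD, n = 3), with a log2 fold change of -0.02 and a 95% interval of -0.35 to 0.31 (limma-trend adjusted p = 0.945). Its receptor Osmr was at or below 0.173 FPKM in every library, and the shared subunit Il6st (gp130) was at 5.81 to 6.70 FPKM in oil and 5.86 to 7.12 FPKM in those labelled tamoxifen. Of 19 measured genes of Osm and the gp130 cytokines, limma-trend called 0 with all 6 libraries (1 higher and 0 lower at an unadjusted p under 0.05), with a median log2 fold change of -0.05. Lifr, which in mouse binds LIF, was the gene of this list with the smallest p, at 2.56 to 2.99 FPKM in oil and 3.56, 4.90 and 3.61 FPKM (log2 fold change 0.43, limma-trend adjusted p = 0.152). Il6 was at 0.550 to 0.645 FPKM in oil and 0.449, 1.55 and 1.32 FPKM, and Lif at 1.85 to 2.43 and 1.86, 3.70 and 2.50 FPKM, so Osm was by far the most abundant of these 3 ligands. Socs3, a feedback inhibitor of gp130 signals, was at 61.1 to 65.5 FPKM in oil and 58.9, 101 and 73.1 FPKM. The 5-library fit called 2 of the 19 higher (Lifr and Socs3) and 1 lower (Il11ra1), where 17.5% and 14.5% of all genes were called. Unadjusted shares of all genes with all 6 libraries were 13.2% higher and 11.8% lower.

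Nampt (ENSMUSG00000020572.8, chromosome 12, 32819545 to 32853349, plus strand), the rate-limiting enzyme of NAD salvage, was at 49.2, 49.5 and 51.9 FPKM with oil against 54.4, 49.1 and 46.3 FPKM in those labelled tamoxifen. The groups overlapped and the log2 fold change of -0.01 had the narrowest 95% interval of the 10 factors, -0.20 to 0.18 (limma-trend adjusted p = 0.947). Of 15 measured genes of NAD synthesis and use, limma-trend called 0 with all 6 libraries (2 higher and 2 lower at an unadjusted p under 0.05) and the median log2 fold change was -0.10. The 2 NAD-consuming ectoenzymes of this list had opposite signs: Cd38 was at 11.4 to 18.1 FPKM in oil and 9.85, 7.46 and 4.85 FPKM, and Bst1 at 13.4 to 16.4 FPKM in oil and 21.0, 57.8 and 34.9 FPKM (log2 fold changes -0.88 and 1.14). Naprt, which makes NAD from nicotinic acid, was at 3.46 to 3.98 and 1.48 to 2.60 FPKM (-0.67), and Sirt1, an NAD-dependent deacetylase, at 12.9 to 15.6 and 18.0 to 24.9 FPKM (0.51). In these 4 genes the groups did not overlap. Of the 15 genes, 2 lay above and 2 below oil in all 3 libraries labelled tamoxifen, where 16.2% and 13.8% of all genes tested did. Of the 15 genes, 3 were called higher and 2 lower in the 5-library fit, where 17.5% and 14.5% of all genes were. Without adjustment, and with all 6 libraries, the shares of all genes were 13.2% and 11.8%.

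Glul (ENSMUSG00000026473.15, chromosome 1, 153899944 to 153909723, plus strand) had the smallest p of the 10 factors. It was at 173, 145 and 155 FPKM with oil against 113, 86.2 and 92.5 FPKM in those labelled tamoxifen 1, 2 and 3. All 3 lay well below the lowest oil library, tamoxifen 1 included. The means were 158 ± 14.1 and 97.2 ± 13.9 FPKM (SD, n = 3), an oil mean 1.62 times that of the libraries labelled tamoxifen, and the log2 fold change was -0.70 (SE 0.12, 95% interval -0.99 to -0.41, limma-trend adjusted p = 0.147, unadjusted p = 0.000823). In the 5-library fit Glul fell by 0.81 on the log2 scale (limma-trend adjusted p = 0.00311). Its exons share 116 bases with the opposite-strand gene Teddm2, which was at or below 0.545 FPKM in every library, and 93 bases with the microRNA gene Mir8114, listed at 0.

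Genes of glutamine and glutamate metabolism and transport had mostly positive fold changes. Of 20 measured members, 17 had a fold change above 0 and 3 below, with a median log2 fold change of 0.29 against 0.02 over all genes. Limma-trend called 0 with all 6 libraries, and at an unadjusted p under 0.05 there were 9 higher and 1 lower. The importer Slc1a5 was at 17.3, 21.4 and 21.0 FPKM with oil against 22.5, 34.0 and 33.6 FPKM in those labelled tamoxifen (log2 fold change 0.55, SE 0.17, limma-trend adjusted p = 0.156). Slc38a2, another importer, was at 102 to 111 FPKM in oil and 111, 147 and 130 FPKM (0.29). Slc7a5 and Slc7a8, exchangers that can release glutamine for other amino acids, had log2 fold changes of 0.86 and 0.51 with no overlap. Of the 20 genes, 5 lay above and 1 below oil in all 3 libraries labelled tamoxifen, where 16.2% and 13.8% of all genes tested did. Glud1, which converts glutamate to a citric acid cycle intermediate, was at 98.0 to 101 FPKM in oil and 106, 138 and 125 FPKM (0.30). Got1, a transaminase, was lower, at 104 to 115 FPKM in oil and 104, 81.7 and 76.7 FPKM (-0.31). Calls in the 5-library fit were 11 higher and 2 lower, where 17.5% of all genes were called higher and 14.5% lower. With all 6 libraries the unadjusted shares of all genes were 13.2% and 11.8%.

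**Figure D4:**
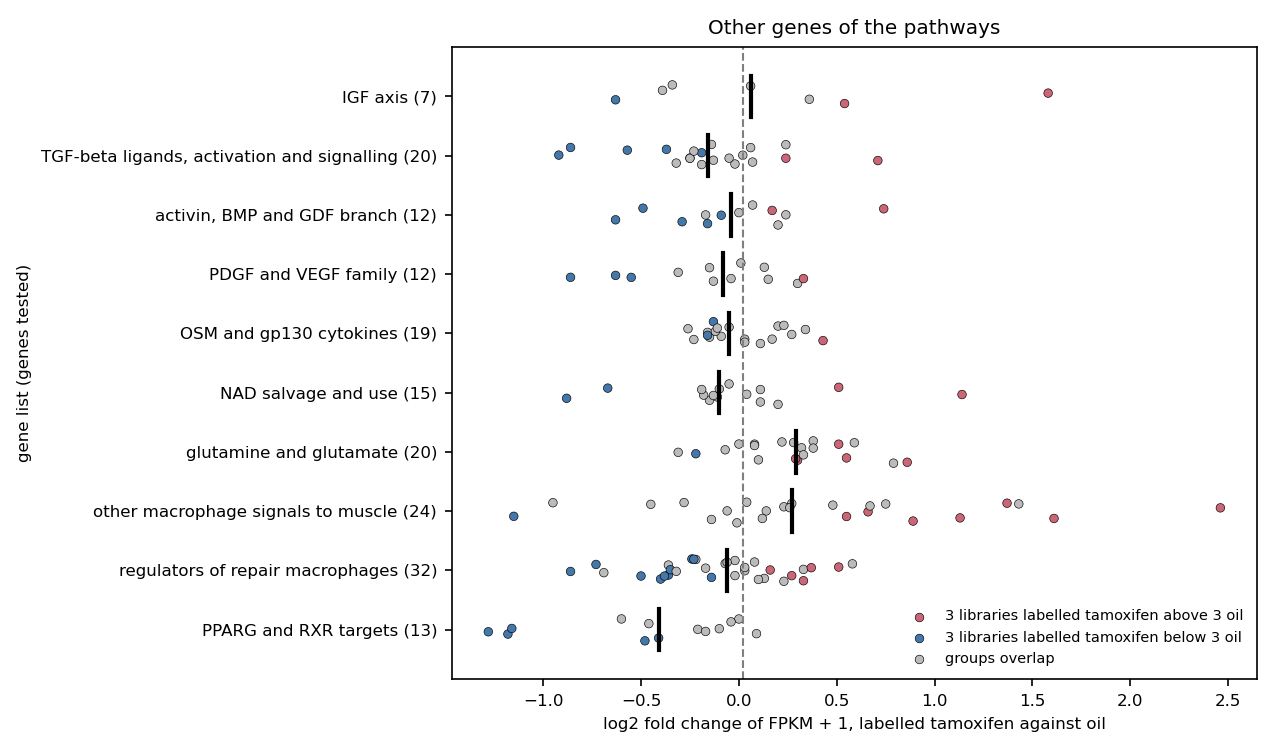
Log2 fold change of FPKM + 1, libraries labelled tamoxifen against oil, for each measured gene of the other lists (points, jittered vertically), with the median of each list (black bar) and of all genes tested (dashed line, 0.02). The medians run from -0.41 (PPARG and RXR targets) to 0.29 (glutamine and glutamate), and 0 of these genes passed with all 6 libraries.

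Other secreted macrophage products studied in regenerating muscle also had mostly positive fold changes. Of 24 measured, 17 had a fold change above 0 and 7 below, with a median log2 fold change of 0.27. Here too limma-trend called 0 with all 6 libraries, with 9 higher and 1 lower at an unadjusted p under 0.05. The chitinase-like Chil3 was at 233, 252 and 140 FPKM with oil against 489, 2460 and 1150 FPKM in those labelled tamoxifen, and the monocyte attractant Ccl2 at 137 to 191 FPKM and 247, 645 and 482 FPKM. Spp1 (osteopontin) was at 4380 to 4890 FPKM in oil and 9590, 8360 and 8270 FPKM, and here tamoxifen 1 was the highest. Fibronectin (Fn1), a matrix protein of the stem cell niche, was at 40.5, 63.4 and 80.1 FPKM with oil against 82.1, 360 and 205 FPKM. Cxcl16 lay lower, at 57.9 to 78.6 FPKM in oil and 50.4, 17.8 and 28.5 FPKM. Hgf, which activates muscle stem cells, had the order of Gdf3, at 8.57 to 9.78 FPKM in oil and 10.8, 4.50 and 5.35 FPKM. Gpnmb, another product of repair macrophages, had that of Gdf15, with tamoxifen 1 inside the oil range, at 532 to 632 FPKM in oil and 621, 176 and 231 FPKM. Hgf and Gpnmb were named after their values were seen. The inflammatory cytokine Il1b and the anti-inflammatory Il10 overlapped between groups (log2 fold changes -0.14 and -0.06). Of the 24 genes, 11 were called higher and 4 lower in the 5-library fit, where 17.5% and 14.5% of all genes were. The unadjusted shares of all genes with all 6 libraries were 13.2% higher and 11.8% lower.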

How the data were processed

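RNA of sorted macrophages was sequenced, and the authors deposited 1 table of FPKM per gene and library, per the file's name. Per the submitters' processing notes the genome was GRCm38.p6, while aligner, counting program, strand and annotation are not stated in these sources. Of 54183 lines, 382 without a name and 27 with a calendar date (0.253% to 0.289% of summed FPKM) and 124 names on several lines were left out. Multiplying FPKM by exon length (GENCODE M21, same build) gave whole reads within 0.02 for 95.0% to 95.29% of values of up to 1000 reads. It also gave 18120334 to 25544654 reads behind each library. Samples were grouped by title, and no column was unused.

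The fit was limma-trend on log2(FPKM + 1), with no covariate, over the 10896 genes whose mean reached 1 FPKM; fold changes on this scale understate those of low genes. The two-sided p-values were Benjamini-Hochberg adjusted over all genes, with a threshold of 0.05. The fit was tested on simulated data in which 200 genes were changed by known folds. The simulated noise was independent between genes and libraries, with no library standing apart as tamoxifen 1 does. The simulation therefore does not bear on the calls made without that library. R 4.3.3 and limma 3.58.1 were used. Alternatives were other pseudocounts (0.1, 0.5), filters, scalings, priors, a replicate block and each library left out. Limma-voom on recovered reads (at least 10 in 3 libraries) and library weights were added after seeing the data. The genes and lists were chosen with earlier results of these data known. Named genes are the 10 factors, Manf and the sort genes, up to 6 genes of each list by p, and ligands, receptors or antagonists of a factor. Genes named beyond these (such as Plin2, Lpl, Acot1, Cebpa, Ddit3, Atf3, Atf4, Bach1, Trp53, Pparg, Nr1h3, Smad3, Smad7, Id1, Socs3, Il1b and Il10) were named after their values were seen. Areg, Ppat and Itgam are not analysed here.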

Additional observations from a re-analysis of the deposited data

How the results depend on the processing

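Leaving out 1 library gave 0 to 1907 genes higher and 0 to 1586 lower, 0 to 1 factors higher and 0 to 5 lower, and 0 to 36 genes of the other lists higher and 0 to 45 lower, of 173 tested. In each case every call came without the library labelled tamoxifen 1, and the other 5 fits gave 0. Library quality weights gave 2696 genes higher and 2035 lower, 1 factor higher and 5 lower, and 45 list genes higher and 55 lower. A filter at 5 FPKM gave 1 gene higher and 4 lower, and no filter gave 1 lower. The replicate block gave 11 genes higher and 22 lower, and 0 factors. The deviations of same-numbered libraries correlated at 0.26, 0.09 and 0.00, so the numbers were not taken as pairs. The direction of Igf1, Gdf15, Gdf3, Tgfb1, Tgfbi, Pdgfb and Glul was the same under every alternative run. Vegfa was at 0.00 (log2) with library weights, while Osm ranged from -0.17 to 0.07 and Nampt from -0.07 to 0.04 with 1 library left out, so no direction is given for these 3. The causes were not tested. No scaling moved the median of all genes by more than 0.1 (log2). With 3 libraries per group, 1 of which stands apart, a difference as large as that of Igf1 did not pass. Levels near 1 FPKM, such as that of Igf1r, lie on a compressed part of the log2(FPKM + 1) scale.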
